A study of Arabidopsis thaliana with 9 samples.

Results

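A group of 86 small RNA clusters was described that stood higher in iron-deficient Arabidopsis shoots than in iron-sufficient shoots. They also stood higher than in shoots returned to iron for 24 hours. A cluster is a stretch of the genome in which small RNA reads pile up, as the cluster-finding program ShortStack defined it. The members were chosen by their own values among the clusters with a genome position. The mean log2 value in -Fe had to exceed both the +Fe mean and the Fe resupply mean by at least 0.4. In addition, the lowest of the 3 -Fe libraries had to lie above the highest of the other 6, and the back-transformed value had to average at least 10 over the 9 libraries. Of 33171 features in the data, 29053 were placed clusters and 18600 of these passed the floor of 10, so the 86 members made up 0.462% of the clusters that could qualify. One further cluster that met the limits, at the long non-coding RNA COS, was left out.

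All plants were wild type of the accession Col-0, the tissue was the shoot, and small RNAs were sequenced from 3 biological replicates of each condition. In -Fe, plants spent 14 days on +Fe medium, 3 days on medium without iron and 24 hours on fresh medium without iron. In Fe resupply the same 14 days on +Fe medium and 3 days without iron were followed by 24 hours back on +Fe medium. The +Fe plants received +Fe medium at all 3 steps, so that every group was moved to new plates at the same times. No library was made at the end of the 3 days without iron. A fall during resupply and a rise on the last day of -Fe therefore cannot be told apart. The sample labels describe seeds sown on soil while the treatment is described on plates, and the number of plants in a replicate is not given in the sources used here. The depth of the libraries is unknown, since the values are log2 normalised values and not reads, and one step of 1 on this scale is a doubling.

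Small RNAs of plants come from several sources. Dicer-like enzymes cut miRNAs and short interfering RNAs to narrow size classes, with heterochromatic siRNAs at the long end of that range and often starting with adenine. Fragments of messenger RNA also enter small RNA libraries, and these lie in the sense direction in the exons of expressed genes and have no fixed length. Iron-deficient shoots switch on a known set of genes, among them the E3 ubiquitin ligase gene BRUTUS (BTS), the IRONMAN peptide genes and the phloem transporter gene OPT3, which together limit and signal the demand for iron.

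The sequences below are the most abundant RNAs of members at the genes around which the results turn, given 5′ to 3′ with the first base in capitals because the first base and the length of these RNAs are compared further on. They are the sequences deposited for each cluster.
PHI-1: Ggauacuucuuauuguucgcuguug
TCH4: Aaaauucuauucauuuuauugu
TCH3: Cggauaagcucacugacgauc
PUP18: Ucuacacucugcauaag
BCB: Uuccguguaggcgacgagcu
BTS: Aacgggugcugaaguucuucaaucuau
FRO3: Acgugagcucaacgaacgcuu
IMA3: Uacaaauugguggccaag
ORG1: Uucauuaauuuuuaucucuucuuguag
OPT3: Gacggcucuuuggaccagg
SZF1: Aaggagaagagcugaaua
ERD15: Ucgauuguggaaccagcua
Their lengths differ, and no single length is common to all. On the nuclear genome of assembly TAIR10.1, to which the deposited positions could be checked, the PHI-1 RNA lies on the plus strand of chromosome 1 at 12852107 to 12852131, in the coding sequence. The BTS RNA lies on the plus strand of chromosome 3 at 6277943 to 6277969, also in coding sequence. The RNA of TCH4 lies on the minus strand of chromosome 5 at 23307222 to 23307243, in the 3′ UTR, and that of ORG1 on the plus strand of chromosome 5 at 21690038 to 21690064, in an intron. The TCH3 RNA has 2 exact matches in the genome, both inside its own cluster, and the other 11 have 1 each.

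The members lie in genes, and nearly all of their most abundant RNAs read in the direction of a gene. Of the 86, 83 overlapped a protein-coding gene most, 2 overlapped transcribed pseudogenes and 1 overlapped the precursor of a miRNA, MIR395b. None lay outside annotated genes, whereas 39.7% of the 18600 clusters over the floor did, and 36.0% of those lay at protein-coding genes. An exact match of the most abundant RNA was found inside its own cluster for 79 members. Of these, 78 lay in the sense direction of the gene in which they matched and 0 in antisense, against 34.5% in sense and 10.6% in antisense among the 17140 placed clusters over the floor with such a match. Of the 75 sense RNAs at protein-coding genes, 68 lay in coding sequence (90.7%, against 75.8% of the 4422 sense RNAs of protein-coding genes over the floor), 4 in a 3′ UTR, 2 in an intron and 1 across an exon edge, and none lay in a 5′ UTR. For MSS3 that gene was its neighbour AT2G43280 on the opposite strand. The RNA counted in neither direction was that of CYP706A1, which matched just outside the gene and at 5 places in the genome. For 7 members no exact match was found.

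The lengths of these RNAs were spread out. In the members 53.5% of the most abundant RNAs were 17 to 20 nt long, 25.6% were 21 or 22 nt, 10.5% were 23 or 24 nt and 10.5% were longer. Over all 18600 clusters the shares were 15.1%, 11.2%, 69.2% and 4.44% for the same classes. The class of 24 nt alone held 8.14% of the members and 56.0% of all clusters over the floor. Sense clusters at protein-coding genes were closer to the members, with 35.2% at 17 to 20 nt and 17.6% at 24 nt. Uracil opened 34.9% of the member RNAs and adenine 24.4%, against 18.1% and 58.4% over all clusters. The members were also wide, with a median of 1216 nt against 672 nt over all clusters and 678.5 nt for the sense clusters, and the median member covered 62.7% of its gene. The rule used none of these features.

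**Figure D1:**
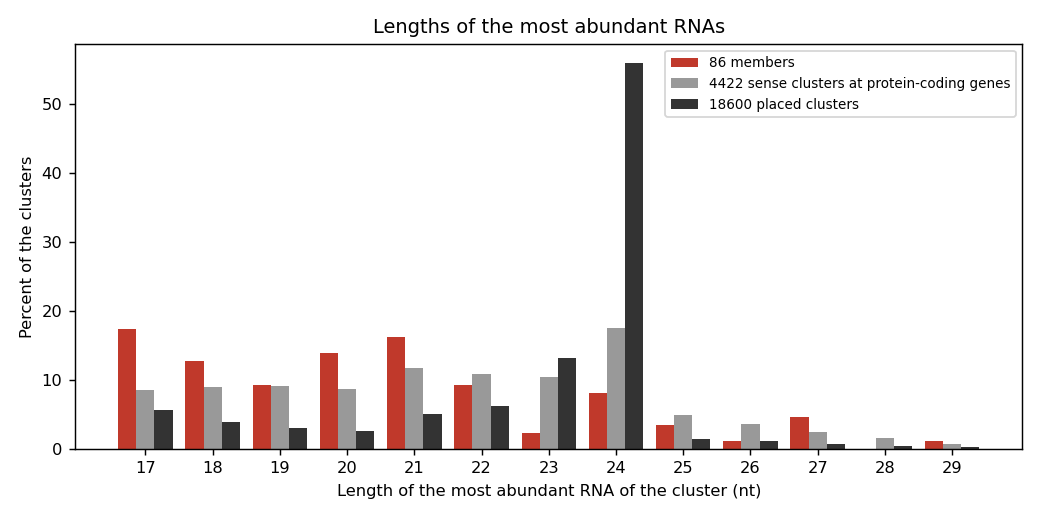
Percent of clusters (vertical axis) whose most abundant RNA has each length from 17 to 29 nt (horizontal axis), for the 86 members, for 4422 sense clusters at protein-coding genes and for all 18600 placed clusters over the floor. The members have no single peak, while 56.0% of all clusters are led by RNAs of 24 nt.

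The 86 clusters fell at 75 genes. There were 4 members at BTS, 3 at ORG1, and 2 each at OPT3, RSH2, PEN3, CGLD27, MPK3 and AT3G04210, so that 19 members shared 8 genes and are not separate measurements of 19 genes. In all, 14 members overlapped 2 or more genes, among them members at OPT3 and MPK3. For IMA3 and SOBIR1 a gene on the opposite strand shares the interval, and in the cluster at MSS3 the most abundant RNA lies in the neighbouring gene AT2G43280, which makes the gene of that cluster uncertain. Of the members, 28 lay on chromosome 1, 9 on chromosome 2, 18 on chromosome 3, 16 on chromosome 4 and 15 on chromosome 5, and none in the organelle genomes.

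Over the members, the difference of -Fe minus +Fe ran between 0.40 and 1.43 with a median of 0.60 on the log2 scale, and that of -Fe minus Fe resupply ran between 0.40 and 1.17 with a median of 0.61. The medians equal 1.52-fold and 1.53-fold. These 2 differences chose the members and are given as a description, with no test. Both were at least 0.5 in 50 members and at least 1 in 4 members. The members just inside the limits were PEN3 with 0.4006 for -Fe minus +Fe and ERD15 with 0.4003 for -Fe minus Fe resupply. Just outside lay a cluster at AT1G55360 with 0.3988 for the first difference and one at AT4G32060 with 0.3981 for the second. The gap between the lowest -Fe library and the highest other library was 0.007 in the member at FLA13, the narrowest, and 0.77 in the widest. Over all features the 3 differences had medians within 0.01 of 0.

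**Figure D2:**
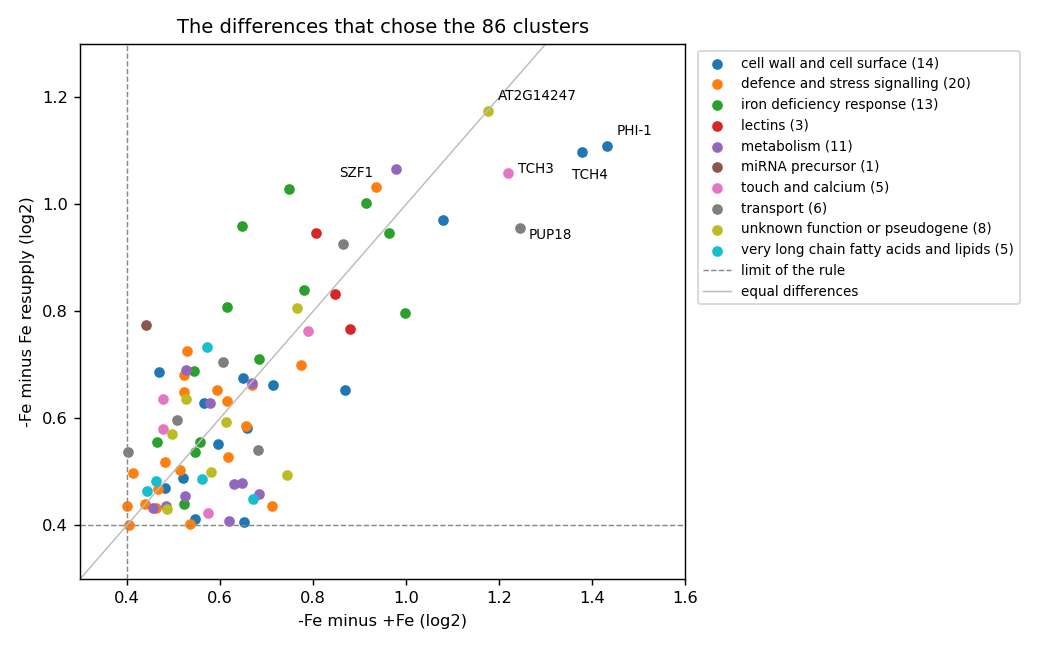
The difference of -Fe minus +Fe (horizontal axis, log2) against that of -Fe minus Fe resupply (vertical axis, log2) for the 86 members, coloured by annotation group with the number of members in brackets. Both differences served to choose the members, and PHI-1, TCH4, TCH3 and AT2G14247 exceed 1 in both.

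Libraries did not contribute evenly. Relative to each cluster's own mean over the 9 libraries, the median member stood at 0.32, 0.57 and 0.33 in -Fe replicates 1, 2 and 3, at -0.19, -0.33 and -0.08 in Fe resupply, and at -0.19, -0.30 and -0.14 in +Fe. Replicate 2 was the highest -Fe library in 70 of the 86 members, against 33.8% of all clusters over the floor. Fe resupply replicate 3 was the highest of the other 6 libraries in 41 members. The 4347 other sense clusters at protein-coding genes over the floor stood at a median of -0.09 in Fe resupply replicate 2 and within 0.05 of 0 in the remaining libraries, while clusters led by 24 nt RNAs stood at 0.06 in that library. Their part in the members' values was not tested. Leaf markers were present, with mean log2 values of 12.15 in -Fe, 12.08 in Fe resupply and 12.14 in +Fe for RCA, the activase of Rubisco. Over the 6 clusters of 5 leaf markers, -Fe minus +Fe ran between -0.10 in LHCB1.3 and 0.23 in RBCS1A, -Fe minus Fe resupply ran between -0.01 in LHCB1.3 and 0.39 in RBCS1B, and 0 were called. Of the 3 root markers only PYK10 had clusters, the highest of which averaged 3.46 in -Fe, 3.33 in Fe resupply and 3.42 in +Fe.

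Applied without -Fe replicate 2, the rule found 74 clusters, 59 of them among the 86. Without Fe resupply replicate 2 it found 71 clusters, of which 68 were members. There were 47 members that met it whichever single library was left out.

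**Figure D3:**
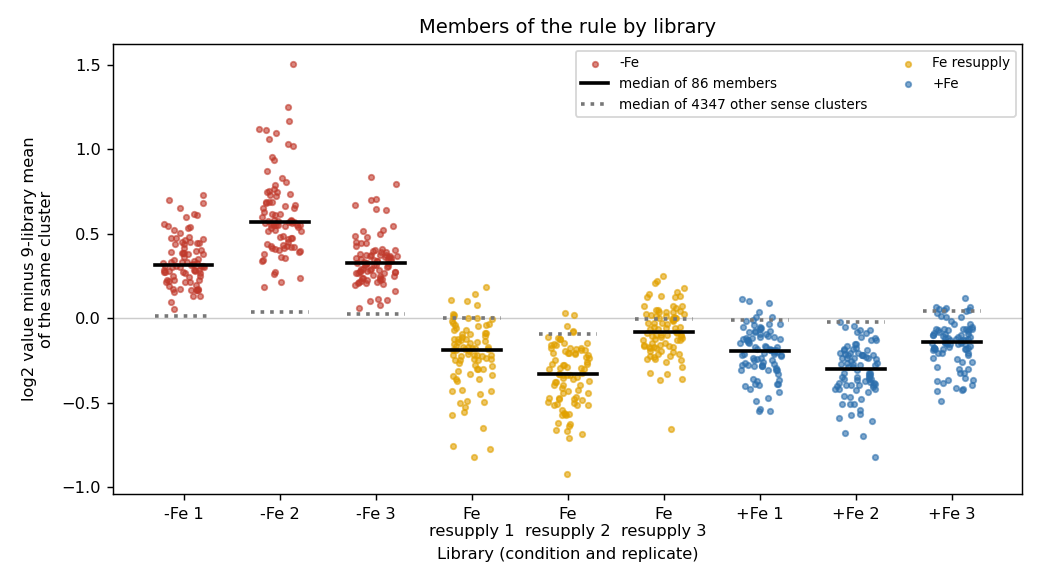
The log2 value of each member minus its mean over the 9 libraries (vertical axis) in each library (horizontal axis), with the median of the 86 members as a black line and that of the 4347 other sense clusters as a dotted line. The -Fe libraries lie above the others by construction of the rule, -Fe replicate 2 has the highest median at 0.57, and Fe resupply replicate 2 the lowest at -0.33.

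By the smaller of the 2 differences, AT2G14247, PHI-1, TCH4, TCH3 and CDI led the members. AT2G14247 encodes an uncharacterised protein. Its cluster had log2 values of 4.51, 5.58 and 4.49 in -Fe, 3.57, 3.65 and 3.83 in Fe resupply and 3.69, 3.64 and 3.72 in +Fe. A single library, -Fe replicate 2, stood well above the other -Fe libraries, and the Fe resupply and +Fe libraries overlapped. PHI-1 belongs to the EXORDIUM family, whose members act in cell expansion, and it is known for its response to low carbon supply. It had 5.89, 6.27 and 5.86 in -Fe, 4.95, 4.45 and 5.29 in Fe resupply and 4.61, 4.34 and 4.78 in +Fe, so that -Fe exceeded +Fe by 1.43 and Fe resupply by 1.11.

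TCH4 encodes a xyloglucan endotransglucosylase/hydrolase that remodels the cell wall and rises on touch. Its values were 8.21, 8.44 and 8.34 in -Fe, 7.36, 6.59 and 7.75 in Fe resupply and 7.02, 6.82 and 7.02 in +Fe. The Fe resupply libraries lay on both sides of the +Fe libraries and spread over more than 1 unit. TCH3, a calmodulin-like calcium sensor, had 7.98, 8.26 and 7.95 in -Fe, 7.12, 6.67 and 7.21 in Fe resupply and 6.75, 6.80 and 6.98 in +Fe. Here too replicate 2 was the lowest of the Fe resupply libraries. The related calcium sensor TCH2 had 5.77, 6.003 and 5.65 in -Fe, 5.26, 4.97 and 5.29 in Fe resupply and 5.54, 5.10 and 5.36 in +Fe, with a margin of 0.11 between the lowest -Fe and the highest +Fe library.

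The purine permease gene PUP18, of a family that moves purines and related compounds across membranes, had 6.817, 6.995 and 6.999 in -Fe, 5.97, 5.72 and 6.25 in Fe resupply and 5.80, 5.50 and 5.77 in +Fe. BCB, which encodes a blue copper-binding protein of the cell surface, was even in -Fe at 5.44, 5.48 and 5.49. It had 4.35, 4.39 and 4.75 in Fe resupply and 4.49, 4.19 and 4.49 in +Fe. CDI, a putative sugar-nucleotide transferase needed for pollen tube growth, had 5.88, 6.82 and 6.06 in -Fe, 5.02, 5.20 and 5.35 in Fe resupply and 5.18, 5.07 and 5.58 in +Fe. In CDI, as in AT2G14247, -Fe replicate 2 stood well above its fellows.

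**Figure D4:**
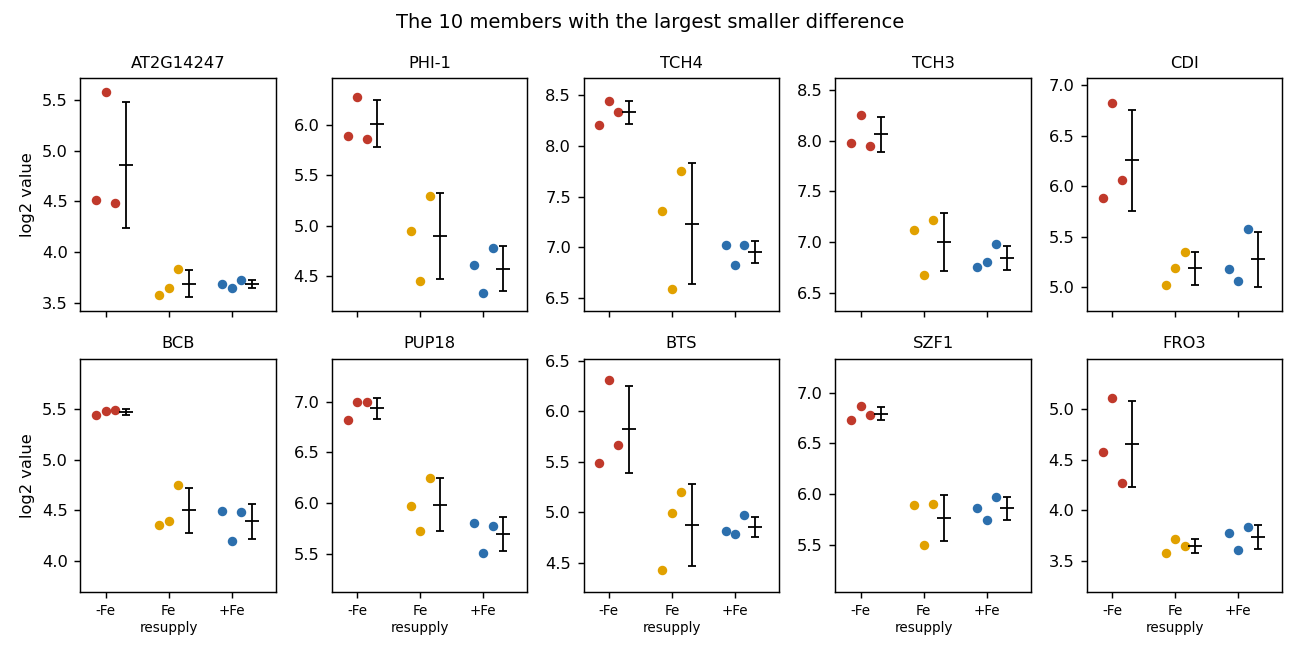
The log2 values (vertical axis) of the 10 members with the largest smaller-of-the-2 differences, by condition, with a coloured point for each of 3 replicates in order 1 to 3 and the mean with its SD in black. All panels span 2.3 log2 units. In every panel the -Fe points lie above the rest, as the rule requires, and replicate 2 is the highest -Fe point in all but BCB and PUP18.

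Iron deficiency genes gave 13 members at 6 genes. They come from a list of 28 regulators and transporters, of which 16 genes had a cluster, 45 clusters in all and 22 over the floor. Thus 59.1% of the list's clusters over the floor were members, beside 0.462% of all clusters over the floor, and no more is read from this because the rule used the same contrasts. Without -Fe replicate 2, 6 clusters at these genes met the rule. BTS, whose product marks iron-regulatory transcription factors for degradation, had 4 members along the gene. The strongest had 5.49, 6.30 and 5.67 in -Fe, 4.43, 4.99 and 5.20 in Fe resupply and 4.81, 4.79 and 4.97 in +Fe. The next had 5.23, 5.60 and 5.16 in -Fe, 4.27, 4.59 and 4.62 in Fe resupply and 4.56, 4.37 and 4.73 in +Fe. In all 4 BTS members the Fe resupply mean lay within 0.1 of the +Fe mean. The one after it had 3.86, 4.38 and 3.74 in -Fe, 3.32, 3.59 and 3.46 in Fe resupply and 3.50, 3.34 and 3.50 in +Fe. The weakest had 3.77, 4.23 and 3.61 in -Fe, 3.48, 3.37 and 3.43 in Fe resupply and 3.36, 3.28 and 3.40 in +Fe.

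FRO3 encodes a ferric-chelate reductase of mitochondria. It had 4.57, 5.11 and 4.27 in -Fe, 3.58, 3.72 and 3.65 in Fe resupply and 3.77, 3.61 and 3.83 in +Fe. ORG1, named for its response to the transcription factor OBP3, had 5.46, 6.23 and 5.29 in -Fe, 4.57, 4.99 and 5.04 in Fe resupply and 4.59, 4.52 and 4.88 in +Fe in its highest member. Its second member had 4.68, 5.13 and 4.53 in -Fe, 3.72, 4.15 and 4.40 in Fe resupply and 4.20, 4.10 and 4.40 in +Fe. Its lowest member had 3.56, 3.93 and 3.67 in -Fe, 3.11, 3.09 and 3.29 in Fe resupply and 3.16, 3.04 and 3.29 in +Fe. In all 3 the libraries of Fe resupply and +Fe overlapped. CGLD27, a gene conserved across photosynthetic organisms, had 4.60, 5.15 and 4.60 in -Fe, 4.13, 4.09 and 3.998 in Fe resupply and 4.199, 3.90 and 4.201 in +Fe in its higher member. The lower one had 3.99, 4.42 and 4.19 in -Fe, 3.49, 3.68 and 3.76 in Fe resupply and 3.82, 3.62 and 3.77 in +Fe.

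In IMA3 and OPT3 the Fe resupply means lay below the +Fe means, by amounts within the spread of the libraries. IMA3, an IRONMAN peptide gene that promotes iron uptake, had 5.62, 6.24 and 5.58 in -Fe, 4.45, 4.90 and 5.01 in Fe resupply and 5.21, 4.86 and 5.12 in +Fe. OPT3, the phloem transporter through which shoots report their iron status, had 5.32, 6.12 and 5.33 in -Fe, 4.48, 4.61 and 4.80 in Fe resupply and 5.14, 4.58 and 5.10 in +Fe in its higher member. The second OPT3 member had 4.62, 5.37 and 4.45 in -Fe, 3.84, 3.96 and 4.21 in Fe resupply and 4.31, 4.02 and 4.27 in +Fe. The Fe resupply mean lay under the +Fe mean by 0.28 in IMA3, 0.31 and 0.19 in the OPT3 members, and the libraries of these 2 conditions overlapped in all 3 clusters.

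Among the other genes of the iron list, bHLH38, bHLH39 and bHLH100, regulators that switch on iron uptake, had 5 clusters, each under the floor of 10. In these 5, -Fe minus +Fe lay between 0.50 and 0.72 and -Fe minus Fe resupply between 0.47 and 0.72. The fourth of this kind, bHLH101, had a cluster over the floor that was no member, with means of 5.95 in -Fe, 6.17 in Fe resupply and 6.09 in +Fe. Over the 45 clusters of the list, 14 were called higher in -Fe than in +Fe and 0 lower, beside 0.268% of the 33159 features tested called higher and 0.235% called lower, or 0.504% in either direction. Against Fe resupply 19 were called higher and 0 lower, beside 0.476% and 0.0513% of the features tested, or 0.528% in either direction. A call here means a limma FDR under 0.1 with a log2 difference of at least 0.5 in size. The 45 include the 13 members, which were picked with the same values. Among the other 32 clusters, 5 were called higher in -Fe than in +Fe and 7 higher than in Fe resupply. The 5 are those at bHLH38, bHLH39 and bHLH100. Between Fe resupply and +Fe, 0 of the 45 were called.

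The iron members and the cell wall members shared the extreme library in -Fe and +Fe and differed in Fe resupply. All 13 iron members, at 6 genes, and 13 of the 14 cell wall and cell surface members were highest in -Fe replicate 2. Their medians in that library were 0.83 and 0.57 above the cluster's own mean. Among all clusters over the floor, 33.8% were highest in that -Fe library. In +Fe, 13 of the 13 and 12 of the 14 were lowest in replicate 2. In Fe resupply, 10 of the 13 iron members were lowest in replicate 1, where their median was -0.49. Of the 14 cell wall and cell surface members, 12 were lowest in Fe resupply replicate 2, with a median of -0.54 there, against -0.13 and 0.05 in replicates 1 and 3. All 5 members for very long chain fatty acids and lipids, all 5 for touch and calcium and all 6 for transport were also lowest in Fe resupply replicate 2. So were 7 of 11 for metabolism and 5 of 8 of unknown function or at pseudogenes. The 20 defence and stress signalling members were split, with 9 lowest in replicate 1, 9 in replicate 2 and 2 in replicate 3. The members thus did not all follow 1 order of the Fe resupply libraries. The groups were set from gene annotation after the values were known and have no test. Clusters at the same gene are repeated views of it in the same libraries. No share over all clusters is given for the lowest libraries.

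The cell wall and cell surface group held 14 members at 14 genes. EXO, which gives the EXORDIUM family its name and promotes leaf growth, had 6.02, 6.31 and 6.09 in -Fe, 5.44, 5.17 and 5.92 in Fe resupply and 5.72, 5.36 and 5.64 in +Fe. The lowest -Fe library stood 0.10 above the highest Fe resupply library. Its relative EXL3 had 6.62, 6.77 and 6.62 in -Fe, 6.29, 6.005 and 6.48 in Fe resupply and 5.99, 5.96 and 6.42 in +Fe. AT1G72600, a hydroxyproline-rich glycoprotein gene, held the cluster of highest value, with 9.29, 9.57 and 9.37 in -Fe, 8.83, 8.47 and 8.91 in Fe resupply and 8.66, 8.81 and 8.82 in +Fe. The cluster overlaps 3 genes and its most abundant RNA has no exact match in the genome, so its source is uncertain. Values of different clusters are not scaled to length and are ranked only to choose which to name.

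The remaining wall genes are given by their means in -Fe, Fe resupply and +Fe in that order. LRX3, a leucine-rich repeat extensin, had 7.98, 7.32 and 7.11. GAE1, which makes the galacturonic acid precursor of pectin, had 6.85, 6.17 and 6.39. The arabinogalactan protein gene AGP15 had 7.80, 7.14 and 7.09, and the fasciclin-like arabinogalactan genes FLA9 and FLA13 had 6.37, 5.97 and 5.72, and 6.09, 5.62 and 5.60. SHV3, a phosphodiesterase-like protein of the wall, had 4.89, 4.40 and 4.36. ENODL17, an early nodulin-like protein, had 5.53, 4.94 and 4.87, and the GPI-anchored glycoprotein gene AT5G19240 had 4.60, 4.05 and 4.00. In all but GAE1 the Fe resupply mean lay above the +Fe mean among these 8. From a list of 26 cell wall growth genes, 4 were members (TCH4, PHI-1, EXO and EXL3). They made up 21.1% of the list's 19 clusters over the floor, beside 0.462% of all clusters over the floor. No more is read from this. The list was chosen with earlier results of these data known, and the rule used the same contrasts. Over the list's 22 clusters, these members included, the medians were 0.14 for -Fe minus +Fe and 0.11 for -Fe minus Fe resupply. The direction was opposite in every cluster of the expansin genes EXPA1, EXPA8 and EXPA11, which loosen walls, and in that of XTH15. None of these was a member. The higher EXPA1 cluster had means of 4.61 in -Fe, 5.05 in Fe resupply and 5.05 in +Fe.

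The group of very long chain fatty acids and lipids held 5 members. KCS1, KCS8, KCS9 and KCS20 encode 3-ketoacyl-CoA synthases, which set the chain length of wax and suberin precursors. KCS1 averaged 6.81 in -Fe, 6.36 in Fe resupply and 6.14 in +Fe, and KCS9 averaged 6.78, 6.29 and 6.31 in the same order. KCS8 averaged 6.31, 5.84 and 5.86, and KCS20 averaged 5.85, 5.11 and 5.27. GPAT3, a glycerol-3-phosphate acyltransferase gene, averaged 4.75, 4.27 and 4.19. The -Fe minus +Fe differences of the 5 lay between 0.44 and 0.67, where the rule admits none under 0.4.

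Defence and stress signalling was the largest group, with 20 members at 17 genes. SZF1, a zinc finger protein of the salt and immune response, had 6.74, 6.87 and 6.78 in -Fe, 5.89, 5.50 and 5.90 in Fe resupply and 5.86, 5.74 and 5.97 in +Fe. The ethylene response factor ERF4, a repressor, had 4.07, 4.26 and 4.24 in -Fe, 3.63, 3.53 and 3.86 in Fe resupply and 3.67, 3.73 and 3.73 in +Fe. Its relative ERF6, which acts in stress-induced growth arrest, had 3.80, 4.21 and 3.91 in -Fe, 3.54, 3.27 and 3.61 in Fe resupply and 3.43, 3.39 and 3.57 in +Fe. ERD15, induced early in drought, had the smallest SD in -Fe, at 8.91, 8.90 and 8.91, with 8.51, 8.43 and 8.58 in Fe resupply and 8.49, 8.52 and 8.50 in +Fe. It is the second highest cluster and the one with the smallest of the qualifying differences.

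Others of the group are given by their means in -Fe, Fe resupply and +Fe. The receptor kinase gene FER, which senses wall integrity, had 6.95, 6.51 and 6.48, and SOBIR1, an adaptor of receptor-like immune proteins, had 5.40, 4.68 and 4.87. The mitogen-activated protein kinase gene MPK3 had 6.14, 5.48 and 5.47 in one member and 4.36, 3.73 and 3.74 in the other. PEN3, an ABC transporter of pathogen resistance, had 7.10, 6.66 and 6.70 in one member and 6.41, 5.97 and 5.97 in the other. The resistance gene WRR4 had 4.59, 4.07 and 3.98. AT3G04210, another of the TIR-NBS class, had 6.46, 5.78 and 5.94 in one member and 4.56, 4.06 and 4.14 in the other. The transcription factor gene DREB26 had 4.86, 4.42 and 4.14, SRC2 had 6.50, 5.92 and 5.85, and HIR2 had 5.32, 4.62 and 4.54. The receptor kinase gene CRK10 had 4.34, 3.88 and 3.88, AT4G08850 had 5.43, 5.03 and 4.90, the tetraspanin gene TET8 had 5.25, 4.60 and 4.66, and the VQ motif gene AT3G56880 had 5.27, 4.62 and 4.74. From a list of 43 rapid stress regulators, 16 had a cluster and 3 held a member, SZF1, ERF4 and ERF6. These made up 21.4% of the list's 14 clusters over the floor, beside 0.462% of all clusters over the floor. The list was chosen with earlier results of these data known, so no more is read from this. Over its 18 clusters, members included, the medians were 0.28 for -Fe minus +Fe and 0.33 for -Fe minus Fe resupply. No member was at WRKY33, a regulator of immunity, whose higher cluster averaged 4.35 in -Fe, 3.82 in Fe resupply and 3.95 in +Fe. That cluster fell just short of the limit of 0.4, with 0.397 for -Fe minus +Fe.

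The touch and calcium group also held ACA1, a calcium pump, with means of 5.24 in -Fe, 4.47 in Fe resupply and 4.45 in +Fe. MSS3, a calmodulin-like protein, had 5.29, 4.86 and 4.71 in the same order and AT4G34150, a calcium-dependent lipid-binding protein, had 4.41, 3.83 and 3.93. Of 12 listed touch, calmodulin and calcium sensor genes, 6 had a cluster, and TCH2 and TCH3 held members. The calmodulin gene CAM1 averaged 4.15, 4.11 and 4.18.

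The 3 lectin members were at genes for sugar-binding proteins. AT1G78830, of the curculin-like family, had 8.11, 8.31 and 8.19 in -Fe, 7.46, 6.98 and 7.68 in Fe resupply and 7.53, 7.26 and 7.28 in +Fe. The neighbouring AT1G78850, of the same family, averaged 7.34 in -Fe, 6.58 in Fe resupply and 6.46 in +Fe. The legume lectin gene AT3G15356 averaged 4.51, 3.56 and 3.70.

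Transport genes other than PUP18 were DIC2, a mitochondrial dicarboxylate carrier, with means of 5.60 in -Fe, 4.67 in Fe resupply and 4.73 in +Fe, and the sucrose transporter SUC1 with 5.64, 5.10 and 5.23. ERD6, a sugar transporter-like protein, had 5.08, 4.48 and 4.57, the purine permease PUP14 had 6.11, 5.57 and 5.43, and the nucleotide-sugar transporter-like gene AT4G18205 had 5.06, 4.36 and 4.46.

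The metabolic genes were mixed. CYP706A1, a cytochrome P450, had 8.05, 8.25 and 8.24 in -Fe, 7.73, 7.71 and 7.87 in Fe resupply and 7.53, 7.60 and 7.55 in +Fe. Every Fe resupply library lay above every +Fe library, as was also so at AT4G08850. No share of such clusters over all features is given, so nothing is read from this order. CYP706A2, the neighbour of CYP706A1, averaged 6.10 in -Fe, 5.67 in Fe resupply and 5.65 in +Fe. MTO3, which makes S-adenosylmethionine, averaged 7.89, 7.20 and 7.37. The β-carotene hydroxylase gene BETA-OHASE 1 averaged 5.97, 5.30 and 5.30. RSH2, of the ppGpp synthase family, averaged 4.51, 4.03 and 3.88 in one member and 4.06, 3.62 and 3.57 in the other. The methyltransferase genes IGMT4 and AT1G55450 averaged 6.53, 6.07 and 6.001, and 4.56, 4.08 and 3.91. The aspartyl protease genes AT1G66180 and AT1G03220 averaged 6.36, 5.90 and 5.67, and 5.56, 4.93 and 4.99.

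Genes of unknown function made up the rest of the protein-coding members. Their means in -Fe, Fe resupply and +Fe were 6.86, 6.23 and 6.33 for AT3G56360 and 5.17, 4.57 and 4.55 for AT5G05250. For AT1G07135 they were 4.71, 3.91 and 3.95, for AT1G27100 5.65, 5.22 and 5.17, and for AT1G25400 4.24, 3.74 and 3.66. The transcribed pseudogenes AT1G05135 and AT1G79245 had 6.89, 6.40 and 6.15, and 6.72, 6.14 and 6.22.

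The single miRNA member was the precursor of MIR395b, whose family silences sulfate transporter and ATP sulfurylase genes. Its cluster had 5.11, 5.46 and 4.83 in -Fe, 4.38, 4.62 and 4.07 in Fe resupply and 4.69, 4.64 and 4.74 in +Fe. Every Fe resupply library lay below every +Fe library, as was also so at AT4G34150. Here too no share over all features is given, and nothing is read from this order. MIR395b was picked out here after its values were seen. The data also hold a separate entry for the annotated precursor, with 5.10, 5.46 and 4.82 in -Fe, 4.38, 4.61 and 4.07 in Fe resupply and 4.69, 4.64 and 4.71 in +Fe, nearly the same numbers, which are thus the same signal and not a second measurement.

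The comparison that the rule did not set directly is that of Fe resupply with +Fe. It sets the members after 24 hours of iron beside the same clusters in plants that never lacked it. In the limma fit over all 33159 features, 0 of the 86 members were called, beside 0.127% of all features. Of these 42 features, 31 stood lower in Fe resupply (0.0935% of the features tested) and 11 stood higher (0.0332%). The lowest FDR among the members was 0.67. At an unadjusted p under 0.05 there were 3 members (3.49%), beside 6.63% of all features. The median difference of the members was 0.00 on the log2 scale, with 48 above 0 and 38 below, and that of all features was also 0.00. The rule favours this outcome, since a cluster that stayed high after resupply could not become a member.

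That no member passed does not show that the levels were equal. The standard errors lay between 0.09 and 0.19, and the 95% intervals reached as low as -0.67 and as high as 0.66. For 74 members the whole interval lay within 0.5 of 0. The intervals and p-values take no account of the choice by the rule, which limited this difference. The count is therefore no measure of a return to the +Fe level. The 3 with an unadjusted p under 0.05 were MIR395b at -0.33 (interval -0.62 to -0.05, FDR 0.67), PUP18 at 0.29 (interval 0.04 to 0.54, FDR 0.68) and CYP706A1 at 0.21 (interval 0.02 to 0.41, FDR 0.71) in the limma fit. PHI-1 had the highest estimate, 0.32, with an interval of -0.01 to 0.66. TCH4 had 0.28 with an interval of -0.10 to 0.66, TCH3 had 0.16 with an interval of -0.10 to 0.42, and IMA3 had -0.28 with an interval of -0.61 to 0.05. The BTS member of highest difference had 0.02 with an interval of -0.35 to 0.38.

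A single library decided 2 of these outcomes. Without Fe resupply replicate 2, TCH4 was called higher in Fe resupply than in +Fe by 0.60 (limma FDR 0.056), and FLA9 by 0.50 (limma FDR 0.09). That library was the lowest Fe resupply library in both clusters. Without it, 76 of all 33159 features were called, 25 higher and 51 lower in Fe resupply, against 42 with all libraries. FLA9 had 6.21, 5.45 and 6.24 in Fe resupply and 5.74, 5.79 and 5.63 in +Fe, with 6.27, 6.56 and 6.29 in -Fe, so that the -Fe libraries cleared Fe resupply replicate 3 by 0.03.

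**Figure D5:**
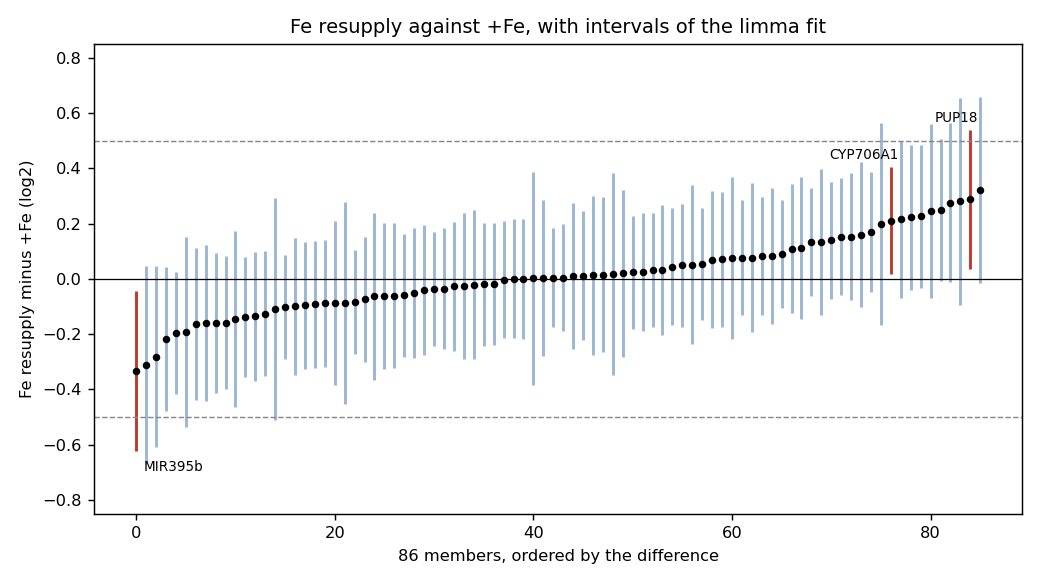
The difference of Fe resupply minus +Fe (vertical axis, log2) with its 95% interval from the limma fit, for the 86 members ordered by the difference (horizontal axis). The 3 members with an unadjusted p under 0.05 are red and named, the dashed lines mark 0.5 in either direction, and 83 of the 86 intervals include 0.

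Other clusters at the same genes were looked at beside the members. There were 40 such clusters at 23 genes, 22 of them under the floor. In 38 of the 40 -Fe was above both other conditions, as it was in 32.5% of the 28966 other placed clusters. The medians of the 40 were 0.28 for -Fe minus +Fe and 0.29 for -Fe minus Fe resupply, against 0.00 and -0.01 in those placed clusters. The other sense clusters at protein-coding genes over the floor, a more similar set, had medians of 0.02 and 0.06. Fragments of one transcript can fall in several clusters, so the 40 are repeated views of the same genes in the same libraries. The largest, at OPT3, averaged 8.45 in -Fe, 7.99 in Fe resupply and 8.17 in +Fe.

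The study's own list of transcripts higher in -Fe shoots, drawn from messenger RNA libraries of the same 3 conditions, was set beside the members as a list of genes. Of its 145 genes, 67 had a cluster and 19 held a member. These 19 genes carried 27 members, 31.4% of the 86 and 38.0% of the list's 71 clusters over the floor. Among all clusters over the floor, 0.462% were members. Most members lay outside the list, 59 of 86, among them TCH4, PHI-1, PUP18 and BCB. The study's methods set a larger log2 fold change for messenger RNA than the 0.4 of the rule. Absence from the list therefore does not show that a transcript was unchanged. A list chosen under the same treatments is not independent evidence of direction. Without -Fe replicate 2, 17 of the 74 qualifying clusters were at its genes.

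The reverse pattern was rarer. A mirrored rule, with -Fe below both other conditions by the same limits, found 24 clusters (0.129% of the 18600). Of these, 15 lay at protein-coding genes and 7 in no gene, and 12 were led by RNAs of 24 nt.

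Promoters of the 72 protein-coding member genes, from 250 bases before to 50 bases after the gene start on TAIR10.1, were searched on both strands for 5 short motifs. The G-box CACGTG was in 10 of them (13.9%), in 9.52% of the 3162 genes with a sense cluster over the floor and in 7.68% of 27443 protein-coding genes. CGCGTT, a form of the CGCG box of calcium and stress-responsive genes, was in 12 (16.7%), against 4.40% and 3.40%. TTGAC, the core of the W-box, was in 53 (73.6%), against 48.4% and 50.5%. GCCGCC was in 3 (4.17%), against 2.50% and 2.57%, and TATAAA in 35 (48.6%), against 51.3% and 52.1%. A match is a description of letters and not a site shown to be bound. The windows below show the G-box and the CGCGTT match, in capitals, in members named above, on the strand of the gene. CGCGTT read on the other strand is AACGCG.
BTS, G-box nearest the start, chr3:6273884-6273913: gatgtgaatggcCACGTGctacaaaaccta
OPT3, G-box, chr4:9250404-9250433: gaccttcaacggCACGTGcgtctcacacgc
ERF4, G-box, chr3:5121227-5121256: aggaaagaaaaaCACGTGgcaaaagataag
CDI, G-box, chr1:24139345-24139374: acgccgagtcaaCACGTGagtcaactcgag
PHI-1, CGCGTT, chr1:12851871-12851900: ctgtaacatccaAACGCGctctttgcctaa
TCH2, CGCGTT, chr5:14999684-14999713: acgcaatctcaaCGCGTTttaattaaaaaa
ERD15, CGCGTT, chr2:17269113-17269142: aaagccaacagtAACGCGtctacacgtgga
The BTS window shows 1 of the 3 G-boxes in that promoter. TCH2 has 4 matches in 2 pairs that overlap on opposite strands, and 1 of them is shown. In ERD15 a G-box follows the CGCGTT match within the same window. The G-box occurred in 4 of the 6 iron deficiency genes among the members, BTS, OPT3, FRO3 and CGLD27, and CGCGTT in none of these 6.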

How the data were processed

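Small RNAs of Col-0 shoots were measured in 9 libraries, 3 for each of -Fe, Fe resupply and +Fe. The authors removed adapters with cutadapt, found and counted clusters of 17 to 29 nt reads with ShortStack on TAIR10, and ran DESeq2 on the reads. The authors deposited log2 normalised values, 1 for each feature and library, and only these were used. Their transformation is not given in the sources used here, and if it shrinks low values, differences at low values are understated. They include negative values, no counts can be recovered from them, and the depth is unknown, so no detection limit was computed.

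Of 33171 features, 12 with a single value in all libraries were left out. limma 3.58.1 in R 4.3.3 was fitted once over all 9 libraries without a replicate block, with eBayes using a trend, and p-values were adjusted by Benjamini-Hochberg over 33159 features. A call needed an FDR under 0.1 and a log2 difference of at least 0.5 in size, the limits of the study's methods. The fit was tested on simulated data. p-values measure the spread between the 3 samples of a condition, whose plants and growth batches are not described further. Annotation was RefSeq on TAIR10.1, and the most abundant RNA was found in its own cluster for 91.3% of 28897 nuclear clusters, which fits the positions to that assembly. Figures and summaries used Python 3.11.15 with pandas 2.3.3.

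The members and the gene lists were chosen with earlier results of these data known. Named with all 9 values were the 10 members with the largest smaller-of-2 differences, the 5 with the highest mean back-transformed value, any called between Fe resupply and +Fe, and all at genes of the lists, for 30 members. MIR395b and FLA9 were added after their values were seen. The alternatives were other limits and floors for the rule, median centring, quantile normalization, log2(back-transformed value + 1), no trend, a fit of only the compared conditions, an FDR under 0.05, a replicate block, and each library left out.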

Additional observations from a re-analysis of the deposited data

How the results depend on the processing

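The number of clusters that met the rule, 86, was 159 with differences of at least 0.3 and 50 with at least 0.5, and lay between 71 and 123 when 1 library was left out. Under the other alternatives it stayed between 66 and 99. Median centring kept 78 of the members and quantile normalization 85. In the limma fit, features called with a floor of 50 numbered 37 for -Fe against +Fe, 99 for -Fe against Fe resupply and 13 for Fe resupply against +Fe, against 167, 175 and 42 with no floor, where 7332 features were tested in place of 33159. With a library left out, the calls lay between 121 and 236 for -Fe against +Fe, between 97 and 375 for -Fe against Fe resupply and between 26 and 122 for Fe resupply against +Fe. The 375 and the 122 were reached without Fe resupply replicate 1, the 97 without -Fe replicate 3 and the 26 without +Fe replicate 3. Members called between Fe resupply and +Fe were 0 under every other alternative and numbered 0 to 2 with a library left out. The 2 were TCH4 and FLA9 without Fe resupply replicate 2, a fit that called 76 of all features. The members' median difference in this comparison lay between -0.06 and 0.06 with a library left out. In alternatives chosen after seeing the data, counts over the members were repeated without -Fe replicate 2 and then without Fe resupply replicate 2. Members at genes of the iron deficiency list, 13, became 6 and 13, and those at genes of the study's list of transcripts higher in -Fe, 27, became 17 and 25. Members at protein-coding genes, 83, became 68 and 68, and sense RNAs, 78, became 61 and 64. The cause was not tested.

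The replicate numbers were not treated as pairs. Same-numbered samples of 2 conditions deviated from their condition means with correlations between -0.08 and 0.116 over 20814 features. For samples of different numbers the correlations lay between -0.135 and 0.19. With 3 samples a condition, these values cannot exclude a pairing. With the replicate block, 227 features were called for -Fe against +Fe, 212 for -Fe against Fe resupply and 75 for Fe resupply against +Fe. Without it the calls were 167, 175 and 42. No member was called between Fe resupply and +Fe with the block.

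Of the 30 members named with all their values, 16 changed the sign of the difference of Fe resupply minus +Fe when 1 library was left out, and no other alternative changed a sign. None of these differences was called. They lay between -0.073 and 0.057 in AT2G14247, -0.19 and 0.065 in CDI, and -0.018 and 0.18 in BCB. In 3 BTS members they lay between -0.15 and 0.24, -0.15 and 0.052, and -0.055 and 0.078. They lay between -0.16 and 0.035 in SZF1, -0.14 and 0.21 in AT1G78830, -0.13 and 0.025 in 1 CGLD27 member, -0.11 and 0.11 in AT1G72600, and -0.27 and 0.11 in EXO. In 2 ORG1 members they lay between -0.064 and 0.061, and -0.30 and 0.042. They lay between -0.057 and 0.11 in ERF6, -0.13 and 0.037 in ERF4, and -0.031 and 0.042 in ERD15.

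Depth is unknown, and 3 libraries a condition give 95% intervals of about 0.2 to 0.4 on either side of a member's difference. A call also needed a difference of at least 0.5 in size, so smaller ones between Fe resupply and +Fe could not be called.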
